A study of Perna viridis with 2 samples.

Results

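Of the 78458 assembled genes listed for the mantle of the green mussel Perna viridis, 144 carried the product name of a secreted or lysosomal protease. They were chosen by a rule on names and not by any expression value. The rule was set with earlier results of these data known. A name counted when it contained trypsin, plasminogen, serine protease, meprin, astacin, matrix metalloproteinase, zinc metalloproteinase, disintegrin, cathepsin, carboxypeptidase, aminopeptidase or blastula protease. Names beginning with the symbols PLG, MEP1, MMP, ADAM, CTS, PRSS or CPA counted as well, and names containing inhibitor did not. Each name is the best database match of an assembled sequence, and 129 of the 144 matches were to mussels of the genus Mytilus.

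RNA came from whole mantle tissue, with all cell types included, of untreated adult mussels with shells of 6 to 7 cm and no stated genotype. The periostracal groove, where the organic outer layer of the shell is secreted, lies between the outer and middle folds of the mantle edge. The submarginal zone lies further in, towards the pallial line. Tissue of 6 animals was pooled in each sample, and 3 biological replicates are stated, but each region had 1 deposited profile, so no value below has a replicate error and no difference was tested. Levels are in TPM, which corrects for transcript length and makes all genes add up to the same total, and the read depth behind them is unknown. In whole tissue, fewer cells of a type and less RNA per cell cannot be told apart. Genes with shell or nacre names, the products of mantle epithelium, summed to 9998 TPM in the groove against 208.6 TPM in the submarginal zone. Only 4 of them reached 10 TPM, and how much epithelium each sample held was not measured. The value column has the groove's sample name as its header in both tables, so the region came from the record under which each table is deposited. An exchange of the tables would turn each direction below.

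Proteases cut peptide bonds and are sorted by how they do it. Serine proteases of the trypsin family, astacin metalloproteases, matrix metalloproteinases and ADAMTS proteins act mostly outside the cell or at its surface, where they activate precursors and remodel matrix. Cathepsins break down proteins inside lysosomes, while carboxypeptidases and aminopeptidases trim residues from the ends of chains. In molluscs such enzymes serve digestion, immunity and the turnover of extracellular matrix.

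The 144 genes comprised 48 ADAM and ADAMTS proteins, 39 serine proteases, 27 cathepsins, 11 aminopeptidases, 10 carboxypeptidases, 5 matrix metalloproteinases and 4 astacin-family metalloproteases. All 144 were above 0 in at least 1 region, 101 reached 1 TPM and 25 reached 10 TPM. The label secreted and lysosomal does not cover each member, since puromycin-sensitive aminopeptidase is known mainly from the cytosol. In 26 members the name pointed to, or listed among several proteins, something other than a peptidase, such as the plasminogen receptor or the thrombospondin-repeat protein coadhesin.

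A gene was called different when it reached 10 TPM in the higher region and differed at least 4-fold after a pseudocount of 1 TPM was added to both values. Of the 25 proteases reaching 10 TPM, 5 were called higher in the submarginal zone, which is 20% against 12.4% of all 5800 genes at that level. None of the 25 was called higher in the groove, where 9.45% of all genes were, and the other 20 were less than 4-fold apart. The 5 were a pair of plasminogens, the meprin gene MEP1B, a carboxypeptidase and an elastase, and each had less than 1 TPM in the groove. A groove level below 1 TPM was also found in 410 of all 719 genes called higher in the submarginal zone. Counting differences of any size, 22 of the 25 proteases (88%) had lower TPM in the groove, beside 72.4% of all genes. The median log2 ratio of groove over submarginal zone was -0.78 for the 25 proteases and -0.55 for all 5800 genes. Median-of-ratios scaling moved the median of all genes to -0.03, that of the proteases to -0.32, and the number of proteases lower in the groove to 17 of 24. Of all genes called in either direction, 43.3% were higher in the groove as deposited and 57.4% with this scaling.

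**Figure D1:**
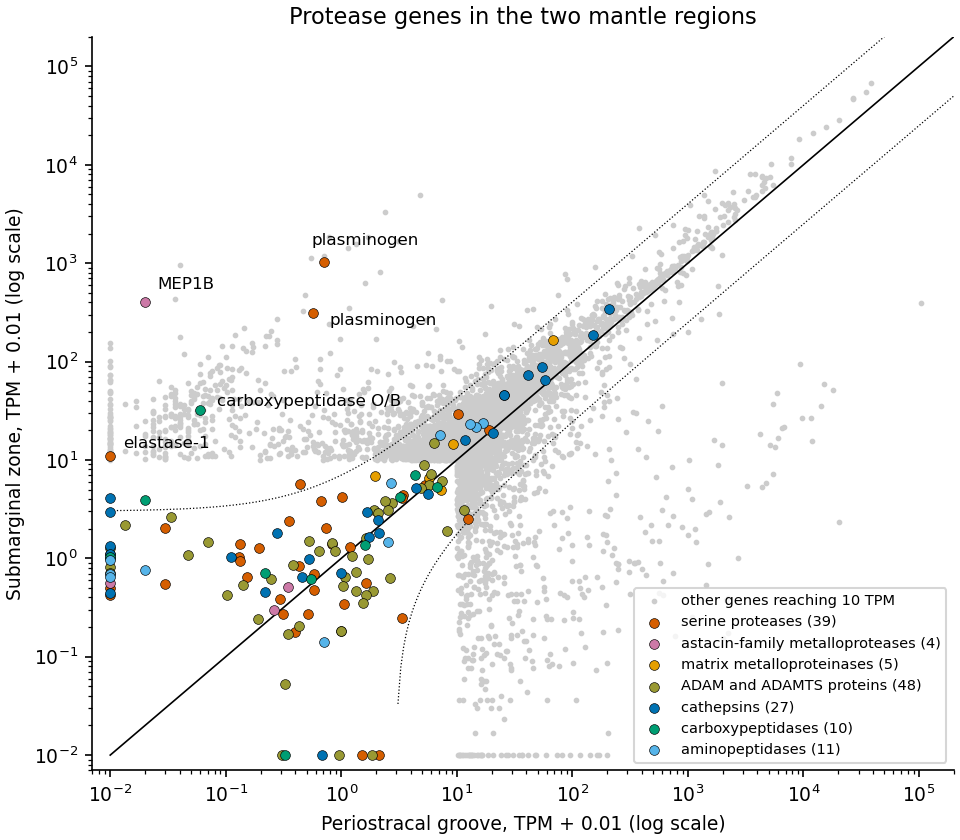
Each point is 1 gene, with its level in the groove on the horizontal axis and in the submarginal zone on the vertical axis, both as TPM + 0.01 on log scales. Grey points are other genes reaching 10 TPM, coloured points the 144 proteases by class, the solid line marks equal levels and the dotted lines a 4-fold difference after adding 1 TPM. The 5 labelled proteases lie above the upper dotted line and below 1 TPM in the groove.

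The widest gap of any protease was found among the serine proteases. The most abundant protease of the submarginal zone was a gene matching plasminogen (TRINITY_DN799_c3_g1), in vertebrates the precursor of plasmin, which dissolves fibrin clots and cleaves matrix proteins. It stood at 1030.3 TPM there, as the 123rd most abundant of all genes, and at 0.70 TPM in the groove. Its log2 ratio of -9.24 was the 10th lowest of the 5800 genes. A second gene named plasminogen (TRINITY_DN13388_c0_g1) had 312.6 TPM in the submarginal zone but 0.56 TPM in the groove, a log2 ratio of -7.65. Both were thus well expressed on one side and close to absent on the other, and together they made up 41.6% of the protease TPM on the submarginal side but 0.132% on the groove side. Other genes with plasminogen in their name that reached 10 TPM had a smaller gap. A gene matching both plasminogen and hepatocyte growth factor, a kringle-domain relative of plasminogen without protease activity in vertebrates, had 25.8 TPM in the groove against 46.1 TPM in the submarginal zone. A further gene with the same names (TRINITY_DN19908_c0_g1) was higher in the groove, at 12.4 TPM, than in the submarginal zone, at 2.52 TPM. Its log2 ratio of 1.93 was the highest of the 25 proteases and lay just under the 4-fold threshold, and it was past that threshold with a pseudocount of 0.1 TPM, with median-of-ratios scaling and with upper-quartile scaling.

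An elastase-1 gene, whose match also names a chymotrypsin-like elastase, was listed at 0 in the groove and had 10.9 TPM in the submarginal zone. In mammals, elastases of this type are made by the pancreas. It was close to the minimum level and was not called with a minimum of 20 TPM, a pseudocount of 5 TPM, median-of-ratios scaling or upper-quartile scaling. Serine protease B had 19.2 TPM in the groove against 19.9 TPM in the submarginal zone, nearly the same level. A gene with a name that combines neurotrypsin, a secreted protease of neurons, with scavenger receptor proteins had 10.2 TPM in the groove against 29.0 TPM in the submarginal zone. Of the 39 serine proteases, 7 reached 10 TPM, and 3 of these were called higher in the submarginal zone, where 12.4% of all genes were. With median-of-ratios or upper-quartile scaling 6 reached 10 TPM, 2 of them called on that side and 1 on the groove side. With the first scaling, 539 of all 5650 genes were called on the submarginal side and 725 on the groove side. With the second, 597 and 652 of all 5668 genes were. All 39 summed to 99.5 TPM in the groove against 1500.2 TPM in the submarginal zone. Without the more abundant plasminogen, the log2 ratio of these sums moved from -3.90 to -2.24, and without the members whose name is not that of a peptidase it moved to -5.18.

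Astacin-family metalloproteases, which hold zinc in their active site, had 1 abundant member. MEP1B, the meprin beta subunit known in mammals from the surface of kidney and gut epithelium, had 405.8 TPM in the submarginal zone but 0.01 TPM in the groove (TRINITY_DN5899_c0_g1). Its log2 ratio of -8.65 was the 13th lowest of all genes, and it was the 234th most abundant gene of the submarginal zone. The remaining 3 members were below 1 TPM in both regions. A second gene named MEP1B had 0.25 TPM in the groove against 0.29 TPM in the submarginal zone, and a blastula protease 10-like gene was listed at 0 in the groove with 0.55 TPM in the submarginal zone. A match to the zinc metalloproteinase nas-4, an astacin of Caenorhabditis elegans, had 0.34 and 0.50 TPM in the same order.

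Carboxypeptidases also had 1 member reaching 10 TPM. A gene matching carboxypeptidases O and B, which remove single residues from the carboxyl end of peptides, had 32.1 TPM in the submarginal zone but 0.05 TPM in the groove, a log2 ratio of -4.98. Most of the remaining members stood closer together. Carboxypeptidase B had 6.73 TPM in the groove against 5.32 TPM in the submarginal zone, carboxypeptidase Q 3.22 and 4.19 TPM, and a vitellogenic carboxypeptidase-like protein 4.32 and 6.98 TPM. An exception was the regulatory subunit of carboxypeptidase N, a non-catalytic partner chain, at 0.01 TPM in the groove against 3.90 TPM in the submarginal zone.

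**Figure D2:**
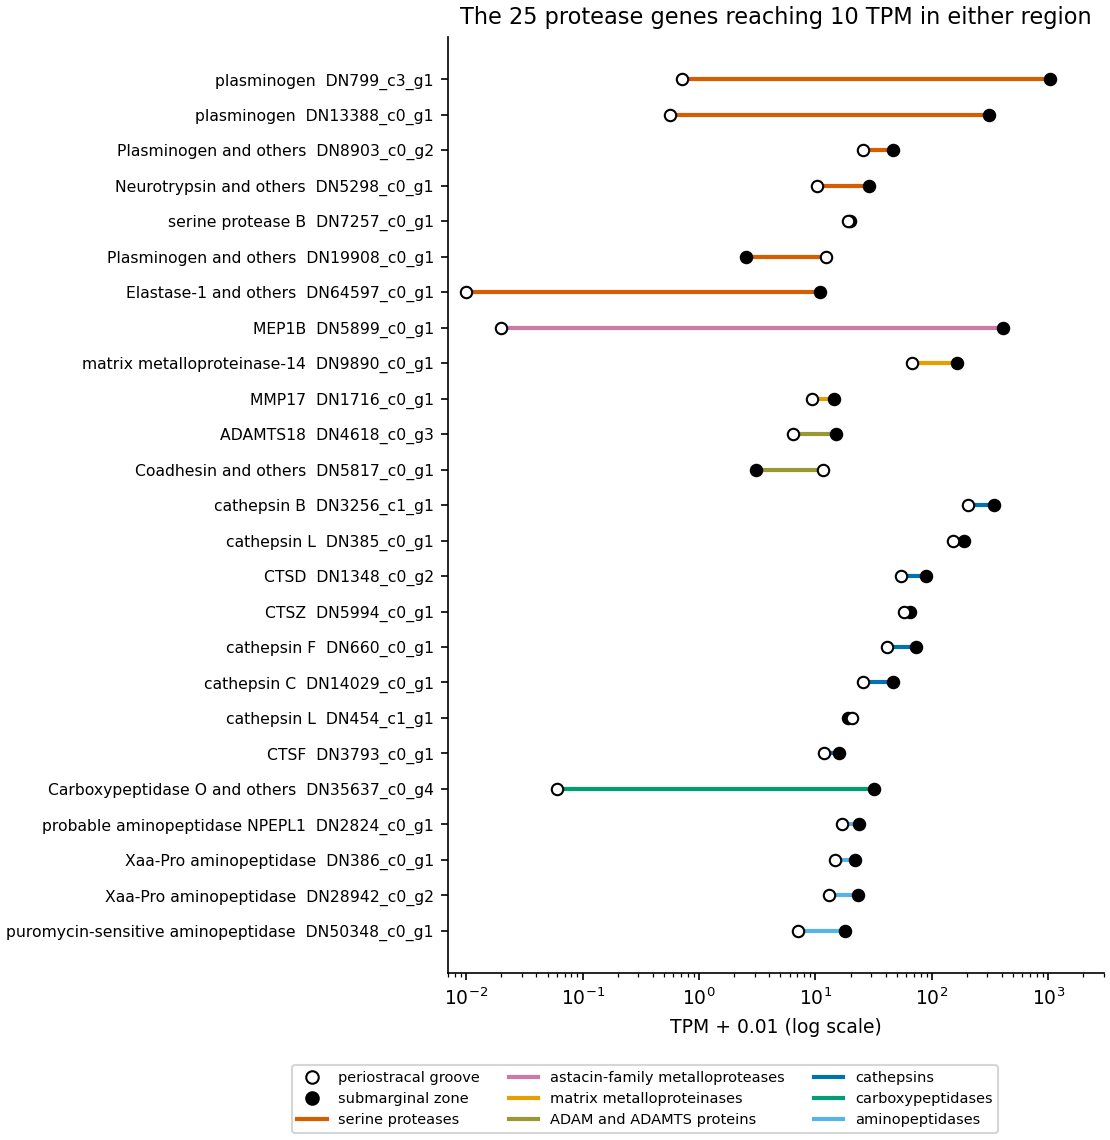
The TPM of the 25 protease genes reaching 10 TPM in either region, as TPM + 0.01 on a log scale, with open circles for the groove, filled circles for the submarginal zone and lines coloured by class. The 2 plasminogens, elastase-1, MEP1B and the carboxypeptidase O gene have long lines, and the 8 cathepsins have short ones.

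Cathepsins were the most abundant proteases of the groove and differed little between regions. In the groove they held 62.0% of all protease TPM, against 27.0% in the submarginal zone, with sums of 588.5 and 870.5 TPM. Of 27 members 8 reached 10 TPM, and none of these 8 differed as much as 2-fold. Cathepsin B, a lysosomal cysteine protease that trims peptides as well as cutting chains, had 205.6 TPM in the groove against 340.7 TPM in the submarginal zone. Cathepsin L, a cysteine protease with broad activity on proteins, had 150.6 and 188.2 TPM, and a second cathepsin L gene (TRINITY_DN454_c1_g1) had 20.4 and 18.9 TPM.

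CTSD, the aspartic protease cathepsin D, had 54.7 TPM in the groove against 88.4 TPM in the submarginal zone. CTSZ, which removes residues from the carboxyl end, had 57.4 and 65.1 TPM. Cathepsin F had 41.3 and 72.4 TPM, a second cathepsin F gene named CTSF 11.8 and 15.8 TPM, and cathepsin C, which in mammals activates granule serine proteases, 25.8 and 46.0 TPM. In 7 of the 8 genes the submarginal zone was thus the higher region, by small margins, and the order of the genes by level was nearly the same in both regions. The median log2 ratio of the 8 was -0.54, beside -0.55 for all genes. With median-of-ratios scaling 4 of the 8 were lower in the groove.

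The remaining 19 cathepsins were below 10 TPM, with 6 of them listed at 0 in the groove but 1 in the other region. A cathepsin L1-like gene (TRINITY_DN35335_c0_g2) was listed at 0 in the groove with 4.11 TPM in the submarginal zone, and a CTSL gene (TRINITY_DN66742_c0_g1, named after its values were seen) at 0 with 2.94 TPM. Cathepsin L names alone covered 16 genes, of which 5 were listed at 0 in the groove but none further in. Over all 78453 genes, 9190 were at 0 in the groove, while 10146 were at 0 in the other region. Not all of the 5 matched mussels. The L1-like gene above matched Pomacea canaliculata, TRINITY_DN34413_c0_g2 Dermacentor variabilis and TRINITY_DN34413_c0_g1 Varroa jacobsoni. The last pair came from the same assembly cluster.

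Matrix metalloproteinases, zinc enzymes that cut collagens and other matrix proteins, were led by a match to the membrane-bound matrix metalloproteinase-14. It had 68.0 TPM in the groove against 164.9 TPM in the submarginal zone, a log2 ratio of -1.27. Another member of the same assembly cluster, named matrix metalloproteinase-15, had the same order at a lower level, with 1.94 and 6.80 TPM. MMP17 had 9.32 TPM in the groove against 14.4 TPM in the submarginal zone. The other two stood closer together, MMP21 with 5.76 and 6.61 TPM and a gene named MMP14 with 7.21 and 4.97 TPM. None of the 5 was 4-fold apart, and their sums were 92.2 TPM in the groove against 197.7 TPM in the submarginal zone.

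ADAM proteins release the outer parts of membrane proteins, and ADAMTS proteins are secreted enzymes of the matrix with thrombospondin repeats. These 48 genes were the most numerous class, with 2 members reaching 10 TPM. ADAMTS18 had 6.34 TPM in the groove against 14.9 TPM in the submarginal zone. A gene with a name that lists coadhesin, thrombospondins and an ADAMTS protein (TRINITY_DN5817_c0_g1) had 11.6 and 3.07 TPM, and a similar one (TRINITY_DN19293_c0_g1) 8.15 and 1.89 TPM. The 48 genes summed to nearly equal levels, 93.7 TPM in the groove against 95.8 TPM in the submarginal zone. The log2 ratio of these sums, -0.03, turned to 0.41 with median-of-ratios scaling, 0.24 with upper-quartile scaling and 0.02 without the 10 most abundant genes. Without the 13 members whose name is not that of a peptidase it was -0.33.

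Several ADAM genes are named here after their values were seen. ADAM10, a protease that cuts Notch and other surface proteins, had 2 entries, with 7.36 and 6.04 TPM for the first and 0.0033 and 2.19 TPM for the second, groove before submarginal zone. All 5 entries of ADAM17, which releases membrane-bound cytokines in mammals, were low and stood higher in the groove, summing to 5.17 TPM there and 1.80 TPM in the submarginal zone. Their names do not tell whether they are 5 genes or pieces of 1.

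Aminopeptidases remove residues from the amino end of peptides. All 4 members reaching 10 TPM were lower in the groove and less than 4-fold apart. Puromycin-sensitive aminopeptidase had 7.10 TPM in the groove against 18.1 TPM in the submarginal zone, and probable aminopeptidase NPEPL1 16.9 and 23.8 TPM. A pair of genes for Xaa-Pro aminopeptidase, which cuts before proline, had 14.7 and 21.8 TPM (TRINITY_DN386_c0_g1) and 13.1 and 23.3 TPM (TRINITY_DN28942_c0_g2). The median of the 4 log2 ratios was -0.66, close to that of all genes.

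**Figure D3:**
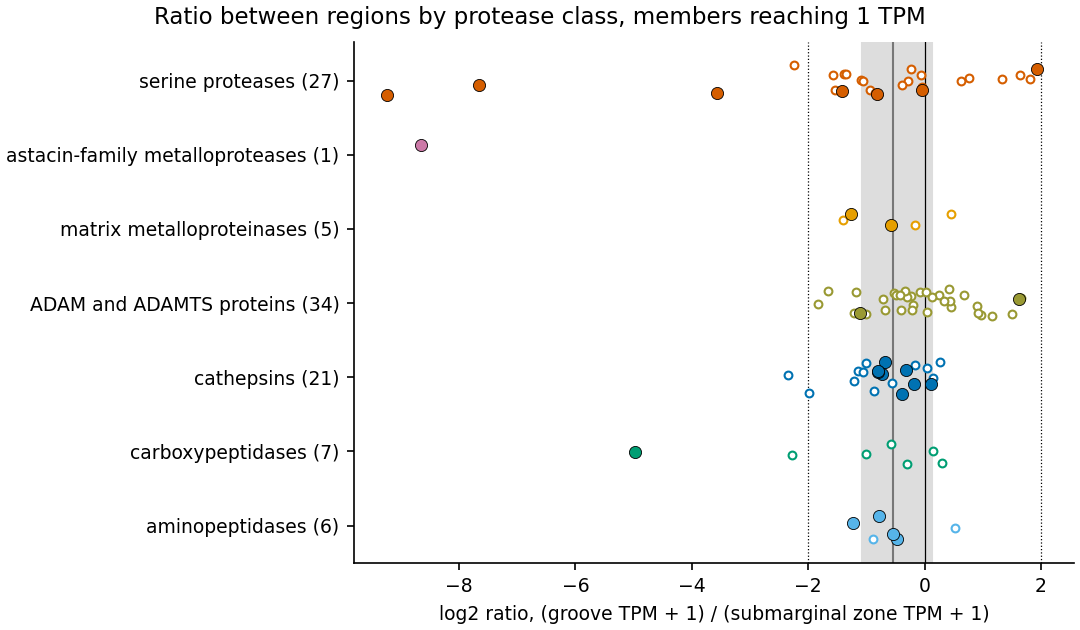
Points are the 101 proteases reaching 1 TPM, by class, with the log2 ratio of groove over submarginal zone after adding 1 TPM on the horizontal axis. Filled points reach 10 TPM, the grey band spans the 25th to the 75th percentile of all 5800 genes and the line in it their median of -0.55, and dotted lines mark 4-fold. The 5 filled points left of the lower dotted line are serine proteases (3), MEP1B and a carboxypeptidase.

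Below 10 TPM, 119 proteases remained, of which 76 reached 1 TPM. Of these 76, 21 stood at 2-fold or more towards the submarginal zone (27.6%, beside 18.5% of all genes in the same range) and 6 towards the groove (7.89%, beside 13.1%). The largest ratios from 2 to 10 TPM towards the submarginal zone belonged to the cathepsin L1-like gene and the carboxypeptidase N subunit above, and to a gene with neurotrypsin and scavenger receptor names (TRINITY_DN36748_c0_g1), with 0.43 TPM in the groove against 5.73 TPM in the submarginal zone. Towards the groove they were a second serine protease B gene with 3.34 and 0.24 TPM, a plasminogen fragment with 2.13 TPM that was listed at 0 in the submarginal zone, and the coadhesin gene with 8.15 and 1.89 TPM. Of the 144 genes, 18 were listed at 0 in the groove, beside 9190 of all 78453 genes. The submarginal zone had 7 others at 0, beside 10146 of all genes. Genes named trypsin itself were low in both regions, and the highest of them (TRINITY_DN41251_c0_g1, named after its values were seen) had 1.00 TPM in the groove against 4.23 TPM in the submarginal zone. The 12 genes named with the symbol PLG reached at most 4.38 TPM and summed to 7.53 and 11.8 TPM.

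Summed over all 144 genes, protease transcripts came to 949.3 TPM in the groove against 3225 TPM in the submarginal zone, which is 0.0949% and 0.323% of all TPM. The 5 genes called higher in the submarginal zone made up 55.6% of its protease TPM and 0.139% of that of the groove. Without these 5, which were picked by the same values, the sums were 947.9 and 1433 TPM. The log2 ratio of the sums moved from -1.76 to -0.60, still higher in the submarginal zone. Over all genes, TPM makes the sums of both regions nearly equal. Single genes nevertheless leaned the same way as the proteases. Among the 5800 that reached 10 TPM, 72.4% were lower in the groove, and their median of -0.55 was close to -0.60. Whether the remaining protease sum goes beyond this general lean was not tested. The higher protease sum of the submarginal zone rested mostly on the 2 plasminogens, with 1343 TPM, and on MEP1B, with 405.8 TPM.

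**Figure D4:**
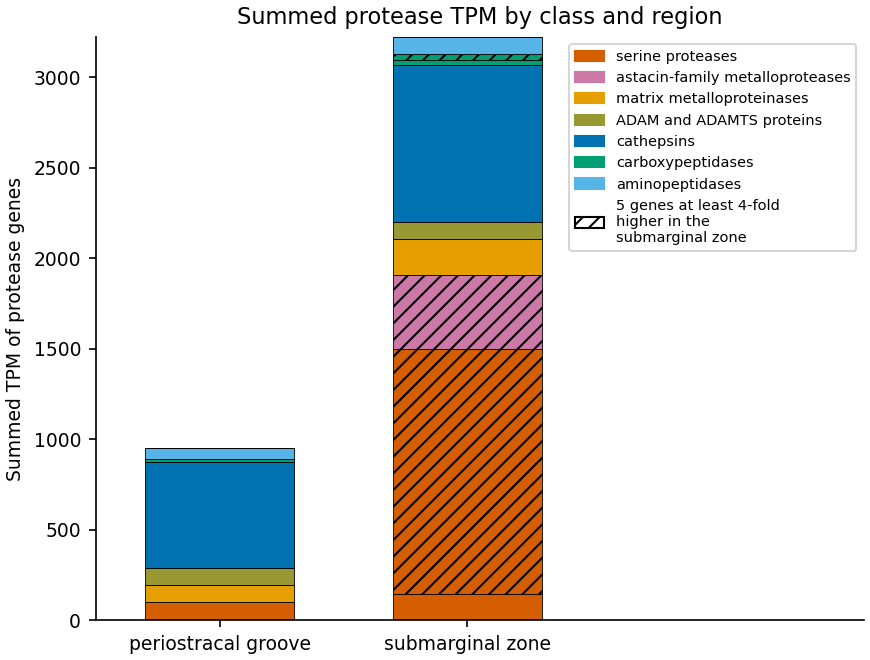
Bars show the summed TPM of the 144 protease genes in each region, stacked by class, with the 5 genes called higher in the submarginal zone hatched. The groove bar reaches 949.3 TPM and consists mostly of cathepsins, and the submarginal bar reaches 3225 TPM, 55.6% of it hatched.

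Partners of the proteases were described from lists of product names. Genes with protease inhibitor names had their calls in the groove. The names do not show that each product blocks a protease. For example, the match of TRINITY_DN17176_c0_g2 lists osmotin and thaumatin proteins beside a trypsin inhibitor. Of 17 inhibitor genes reaching 10 TPM, 7 were called higher in the groove (41.2%, beside 9.45% of all genes) and 0 in the other region. Their median log2 ratio was 1.03, and their sums were 2036 TPM in the groove against 839.7 TPM in the submarginal zone. The gene named peptidase inhibitor 16 reached 741.2 TPM in the groove but 0.70 TPM further in. A protein with the Kunitz inhibitor domain had 17.2 and 0.05 TPM, and a papilin-like protein, which holds such domains, 41.2 and 1.57 TPM. Apart from peptidase inhibitor 16, all the called genes were named papilin or Kunitz-domain protein. Another Kunitz-domain gene, with 39.6 and 44.0 TPM, was not called. Peptidase inhibitor 16 and a papilin gene with 290.0 and 19.3 TPM held a large part of the groove sum. These last values were chosen after they were seen. TIMP4, a tissue inhibitor of metalloproteinases, and cystatin-A/B, an inhibitor of cysteine cathepsins, were not 4-fold apart, with 48.8 and 16.5 TPM for TIMP4 and 116.4 and 182.3 TPM for cystatin-A/B (both named after their values were seen). The names do not tell which inhibitor blocks which protease.

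Other lysosomal proteins had 11 genes reaching 10 TPM, of which 1 was called higher in the groove, where 9.45% of all genes were, and 0 in the other region. That 1 was HEXA_B, a hexosaminidase that removes sugar residues, with 100.7 and 0.28 TPM. Their median log2 ratio was -0.46, beside -0.54 for the cathepsins and -0.55 for all genes. With median-of-ratios scaling 13 reached 10 TPM, with a median of 0.14, beside -0.11 for the cathepsins and -0.03 for all genes. Proteases outside the name rule, such as legumain, calpains and furin, had 3 genes reaching 10 TPM and none of these was 4-fold apart. LGMN, the lysosomal protease legumain, had 14.7 TPM in the groove against 19.2 TPM in the submarginal zone, the calcium-dependent calpain CAPNN 20.6 and 24.0 TPM, and the dipeptidyl peptidase DPP3 18.9 and 27.2 TPM, though only 1 of the 3 was lower in the groove with median-of-ratios scaling. These 3 were named after their values were seen.

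Markers of other cell types were not equal in both regions, so their levels are given beside the proteases. Of 15 germ-cell genes reaching 10 TPM, 11 were called higher on the submarginal side (73.3%, beside 12.4% of all genes) and 0 in the groove. With median-of-ratios scaling 8 of 15 were called on the submarginal side, beside 539 of all 5650 genes. The 44 genes of this list summed to 148.6 TPM in the groove against 776.9 TPM in the submarginal zone. The testis kinase TSSK had 0.10 and 143.5 TPM and the germline protein PIWIa 19.3 and 95.6 TPM. In 7 of the 15 the groove was below 1 TPM, beside 410 of all 5800 genes reaching 10 TPM. In the groove 3 of the 44 were listed at 0, beside 9190 of all 78453 genes. Among the 3 was NANOS3, with 0.85 TPM in the submarginal zone.

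Ciliated-cell genes had 6 of 35 called higher on the submarginal side (17.1%, beside 12.4% of all genes), 0 on the groove side. The count was 3 of 32 with median-of-ratios scaling, beside 539 of all 5650 genes. With upper-quartile scaling it was 3 of 33, beside 597 of all 5668 genes. Counting differences of any size, all 35 were lower in the groove, beside 72.4% of all genes. Their median log2 ratio was -1.49, beside -0.55 for all genes. With median-of-ratios scaling 31 of 32 were lower, with a median of -1.13, beside -0.03 for all genes. The ciliated-cell list summed to 517.9 and 1431 TPM, and enkurin had 29.8 and 113.3 TPM and tektin-2 25.7 and 106.1 TPM. In 2 of the 35 the groove was below 1 TPM. Muscle genes had 1 of 8 called higher in the groove, beside 9.45% of all genes, and 0 in the other region. Of these 8, 7 were lower in the groove, with a median log2 ratio of -1.17, and 5 of 8 with median-of-ratios scaling. The muscle list summed to 4590.0 and 14464 TPM, and paramyosin had 1392 and 4900.2 TPM and a myosin heavy chain 1043 and 3876 TPM. Haemocyte genes, of the circulating immune cells, had 2 of 19 called higher in the groove, beside 9.45% of all genes, and 1 in the other region, beside 12.4%. Their sums were 2179 and 2659 TPM, a log2 ratio of -0.29 that turned to 0.16 with median-of-ratios scaling. The antimicrobial peptides mytilin 8 and mytilin 3 had 545.4 and 888.8 TPM and 242.5 and 625.8 TPM. The 2 groove calls were C-type lysozyme 3 with 432.1 and 10.7 TPM and a c-type lysozyme with 58.6 and 0.25 TPM, both chosen after their values were seen. The digestive gland list had 1 gene reaching 10 TPM, a pancreatic lipase-related protein with 369.9 TPM in the groove against 12.9 TPM in the submarginal zone. Its other 10 genes were below 10 TPM, the highest of them an inactive pancreatic lipase-related protein with 1.05 and 9.77 TPM, and 5 of the 11 were listed at 0 in the groove. The part of these cell types in the protease differences was not tested.

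**Figure D5:**
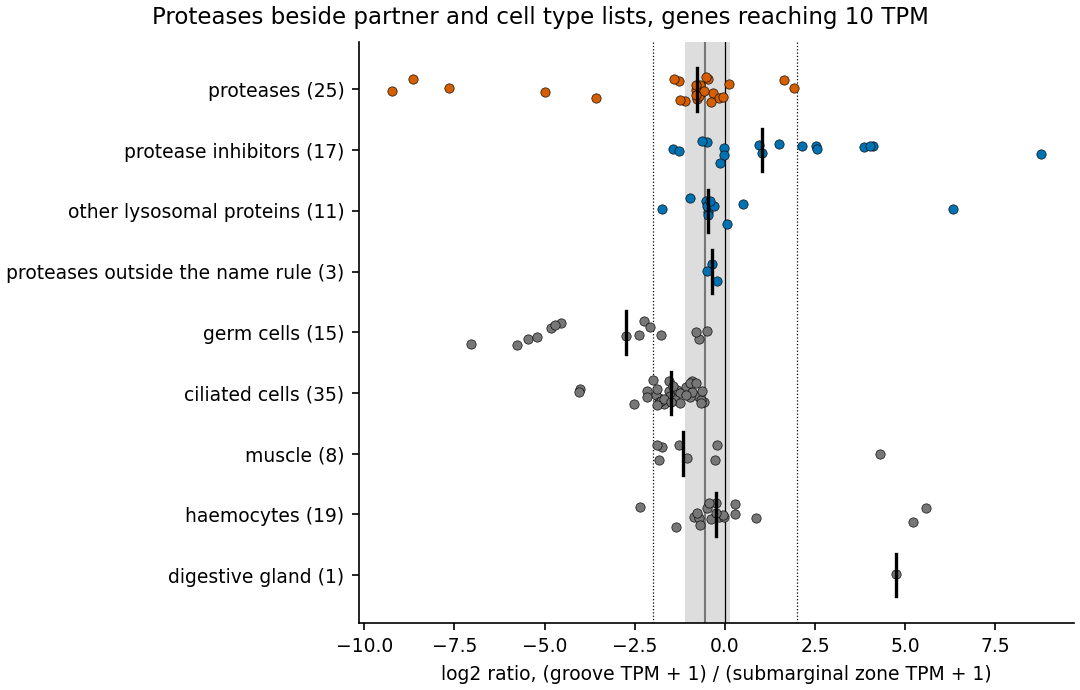
Points are genes reaching 10 TPM, by list, with the log2 ratio of groove over submarginal zone after adding 1 TPM on the horizontal axis. Thick bars are list medians, the grey band spans the 25th to the 75th percentile of all genes and dotted lines mark 4-fold. The inhibitor median lies at 1.03, to the right of the protease median of -0.78, and the germ-cell median at -2.73.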

How the data were processed

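Per the labels' protocols, DNase I was used on the total RNA before TruSeq libraries were built from it. The tool fastp is named, with no version, per the submitters' processing notes. For the assembler, quantifier and database used by the authors, the name is not given in the sources used here. TPM tables deposited by the authors hold 1 value per gene and region and sum to 999875 (groove) and 999820 (submarginal zone). Multiplied by 300, each value lay within 0.002 of a whole number, as means of 3 values with 2 decimals would. They are taken to be means made by the authors, and carry no SD or n. TPM keeps no depth, so no counting interval is given. For 5 genes the value cells were empty, none of them a member.

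The log2 ratio divides groove by submarginal TPM, each plus 1 TPM, and so is compressed for genes of low level. The members, lists and rules were chosen with earlier results of these data known. Each member went to the first class its name matched. Named genes were the called members, up to 6 others per class reaching 10 TPM by mean, and up to 3 in each direction from 2 to 10 TPM. Up to 3 called genes per direction of each partner list and the 2 highest of each cell type list were added. Other members below 10 TPM, and the 2 least abundant of the 8 cathepsins reaching it, were named after their values were seen. A few wrong matches, such as polyglutamylase for amylase, were taken out of the partner and cell type lists after the names were seen. The code that makes the calls was tested on simulated data with known changes, which says nothing of replicate error. Alternatives were other pseudocounts, minimums, folds and scalings, and members left out. Values were computed in Python 3.11.15 with pandas 2.3.3 and numpy 2.4.6, and plotted with matplotlib 3.10.9.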

Additional observations from a re-analysis of the deposited data

How the results depend on the processing

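The number of proteases at least 4-fold higher in the groove, 0 as reported, was 1 with a pseudocount of 0.1 TPM, with median-of-ratios scaling and with upper-quartile scaling, and 2 at 2-fold. The number higher in the submarginal zone, 5 as reported, was 8 with no minimum level and 9 at 2-fold, and from 4 to 6 under the other alternatives. The median log2 ratio of the proteases ranged from -0.81 to -0.32 over its alternatives. The log2 ratio of summed protease TPM was -1.76 as reported and -0.60 without the genes at least 4-fold apart, an alternative chosen after the data were seen. It was -1.21 without the more abundant plasminogen. The summed ratio of the ADAM and ADAMTS class reversed to 0.41 with median-of-ratios scaling, 0.24 with upper-quartile scaling, 0.022 without the 10 most abundant genes, and 0.11 without its most abundant member, ADAMTS18. It was -0.33 without the members whose name is not that of a peptidase. The log2 ratio of MEP1B was -11.85 with a pseudocount of 0.1 TPM and -6.36 with 5 TPM, since its groove level lies far below the pseudocount. Of the 5 called genes, the elastase was lost under 4 alternatives and the other 4 were called under each pseudocount, minimum, fold and scaling tried. Beyond what these settings change by construction, the cause was not tested. No paired analysis was possible because each region has 1 profile, and for the same reason no replicate could be left out. Read depth is unknown, so a gene listed at 0 may be present below detection.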
